A study of Mus musculus with 6 samples.

Results

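The D cyclins, MYC and the Rb checkpoint were followed as 10 named genes: the D cyclins Ccnd1, Ccnd2 and Ccnd3, the kinases Cdk4 and Cdk6, the pocket protein gene Rb1, the inhibitors Cdkn1b, Cdkn2a and Cdkn2c, and Myc. They were listed by name, with earlier results of these data known, and all 10 were found among the 47643 gene identifiers measured. The material was RNA of sorted CD45-EPCAM+ tumor cells from 6 breast tumors of MMTV-PyMT mice of the strain FVB/N-Tg (MMTV-PyVT)634Mul/J, in which a mammary tumor virus promoter drives the polyoma middle T oncogene in mammary epithelium. All 6 tumors shared 1 treatment, the anti-VEGF-A antibody B20-4.1.1 at 5 mg/kg, 2 doses per week for 6 weeks from 7 weeks of age. The study dealt with tumors that become more hypoxic under this antibody and with their lack of response to PD-L1 blockade. The sample labels do not say which tumors were hypoxic, and no untreated tumor was analysed here. The values are therefore given per tumor, and hypoxia enters only as a score measured in the same libraries. The labels carry 6 identifiers and do not say whether each tumor came from its own animal, so p-values measure only the spread between these samples.

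D-type cyclins are induced by growth factor signaling and bind CDK4 or CDK6, and the resulting kinases phosphorylate the retinoblastoma protein. Phosphorylated Rb releases E2F transcription factors, which switch on genes for DNA replication. INK4 proteins such as those of Cdkn2a and Cdkn2c block CDK4 and CDK6, p27 (from Cdkn1b) restrains CDK2, and MYC drives growth genes and can raise D cyclin and CDK4 transcription. In mouse mammary tumors, cyclin D1 and its kinase partners are classical mediators of oncogenic signaling.

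Levels are counts per 1000000 counts on genes (CPM). Between 2509482 and 5893246 counts fell on genes per tumor, so that 3 counts, the limit that a count of 0 allows, were worth 0.509 to 1.20 CPM. Luminal markers, Epcam and the keratin genes Krt8 and Krt18 among them, summed to 3957 to 4874 CPM, whereas 3 endothelial markers summed to at most 3.88 CPM and 4 fibroblast markers to at most 23.8 CPM. Ptprc, which encodes CD45, had at most 18 counts and the B cell gene Cd79a had 0 in every tumor. Tumor 1 stood apart from the rest: its median correlation with the other libraries was 0.788, against 0.905 to 0.939 for the other tumors, and it held the highest value of 32.5% of the tested genes and the lowest of 31.0%. Tumor 1 also had the most counts on genes, 5893246, and the lowest share of reads that fell on no gene, 16.1%. Tumor 2 had the fewest counts, 2509482, and the highest such share, 41.4%. The part of these library differences in the levels below was not tested. Tumor 3 had the most leukocyte and erythroid marker transcripts, with sums of 215 and 864 CPM. In bulk RNA, fewer cells of a type and less RNA per cell cannot be told apart.

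Promoters of 6 of the 10 genes were matched in RefSeq (GRCm38.p6), and those of Cdk4 and Cdkn2a are printed because Cdk4 is a known MYC target with its own outlying tumor and because Cdkn2a starts from separate promoters that 3′ counts cannot separate. Each window runs from 250 bases before to 50 bases after the start, and capitals mark the E-box CACGTG, the MYC-MAX site, or the E2F motif TTTNNCGC with N as C or G, searched on both strands. The Cdk4 window lies at chr10:127063285-127063584 on the plus strand. The Cdkn2a windows lie on the minus strand, that of the p19Arf transcript at chr4:89294570-89294869 and that of the p16Ink4a transcript at chr4:89282143-89282442.
Cdk4: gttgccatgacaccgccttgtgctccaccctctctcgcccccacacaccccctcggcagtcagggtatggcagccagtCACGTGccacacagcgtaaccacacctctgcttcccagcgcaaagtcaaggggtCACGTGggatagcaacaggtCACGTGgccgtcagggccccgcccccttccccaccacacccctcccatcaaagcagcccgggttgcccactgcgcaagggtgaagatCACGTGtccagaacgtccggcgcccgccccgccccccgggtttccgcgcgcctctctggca
Cdkn2a, p19Arf start: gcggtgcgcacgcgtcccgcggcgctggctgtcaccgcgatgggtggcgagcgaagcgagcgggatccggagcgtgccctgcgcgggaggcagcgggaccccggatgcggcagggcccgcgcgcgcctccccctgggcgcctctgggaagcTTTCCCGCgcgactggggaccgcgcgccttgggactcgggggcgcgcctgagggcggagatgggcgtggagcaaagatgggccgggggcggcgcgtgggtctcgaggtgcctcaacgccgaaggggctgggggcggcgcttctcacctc
Cdkn2a, p16Ink4a start: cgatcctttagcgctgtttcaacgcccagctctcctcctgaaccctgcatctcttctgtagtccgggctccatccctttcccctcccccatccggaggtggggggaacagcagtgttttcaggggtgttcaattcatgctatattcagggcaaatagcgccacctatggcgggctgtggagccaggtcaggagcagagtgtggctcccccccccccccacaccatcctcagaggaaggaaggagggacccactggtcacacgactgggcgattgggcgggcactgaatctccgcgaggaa

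The Cdk4 window held 4 E-boxes, which began 172, 118, 98 and 11 bases before the start. At least 1 E-box was present in 7.15% of 32851 promoter windows of this length, and at least 4 in 0.0244% of them. The p19Arf window held 1 match to the E2F motif, 99 bases before the start, a motif found in 2.26% of all windows. No match to either motif lay in the p16Ink4a window. Single E-boxes also lay in the window of Cdk6 and in 1 window of Cdkn2c.

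Across the 6 tumors, 3 of the 10 genes were nearly even (Cdk6, Cdkn1b and Ccnd3), and 3 were highest in tumor 5 (Ccnd2, Cdkn2a and Myc), with Ccnd2 second highest in tumor 4. With TMM-scaled CPM, 4 of the 10 were highest in tumor 5, Ccnd1 among them, against 16.9% of all tested genes. Ccnd1, Cdk4 and Rb1 took their widest range from tumor 1, and Cdkn2c was low everywhere. Divided by the union exon length of each gene (TPM), the order of the median levels was Cdkn1b (84.1 TPM), Cdk4 (61.0), Ccnd1 (57.3), Rb1 (36.3), Ccnd3 (26.2), Cdk6 (17.5), Cdkn2a (7.29), Cdkn2c (4.07), Myc (3.98) and Ccnd2 (1.05). The ranges of neighbors in this order overlapped over the tumors. Compared within each tumor, Ccnd3 exceeded Cdk6 per length in 6 of 6 tumors, by 1.29 to 1.59 times, and Cdkn2a exceeded Cdkn2c and Myc exceeded Ccnd2 in 6 of 6, these on low counts and by as little as 1.06 times for Cdkn2a, whereas every other pair of neighbors changed places in at least 1 tumor. Because these 3′ libraries yield reads near the end of each transcript, dividing by length lowers long genes such as Cdk6, whose median CPM of 95.1 lay above that of Cdk4 at 78.7. The orders seen in every tumor also rest on that division. In counts, Cdk6 equaled Ccnd3 in tumor 1 and exceeded it in every other tumor. Cdkn2c counts exceeded those of Cdkn2a in tumors 1 to 4, and Ccnd2 counts exceeded those of Myc in tumors 1, 4 and 5.

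**Figure D1:**
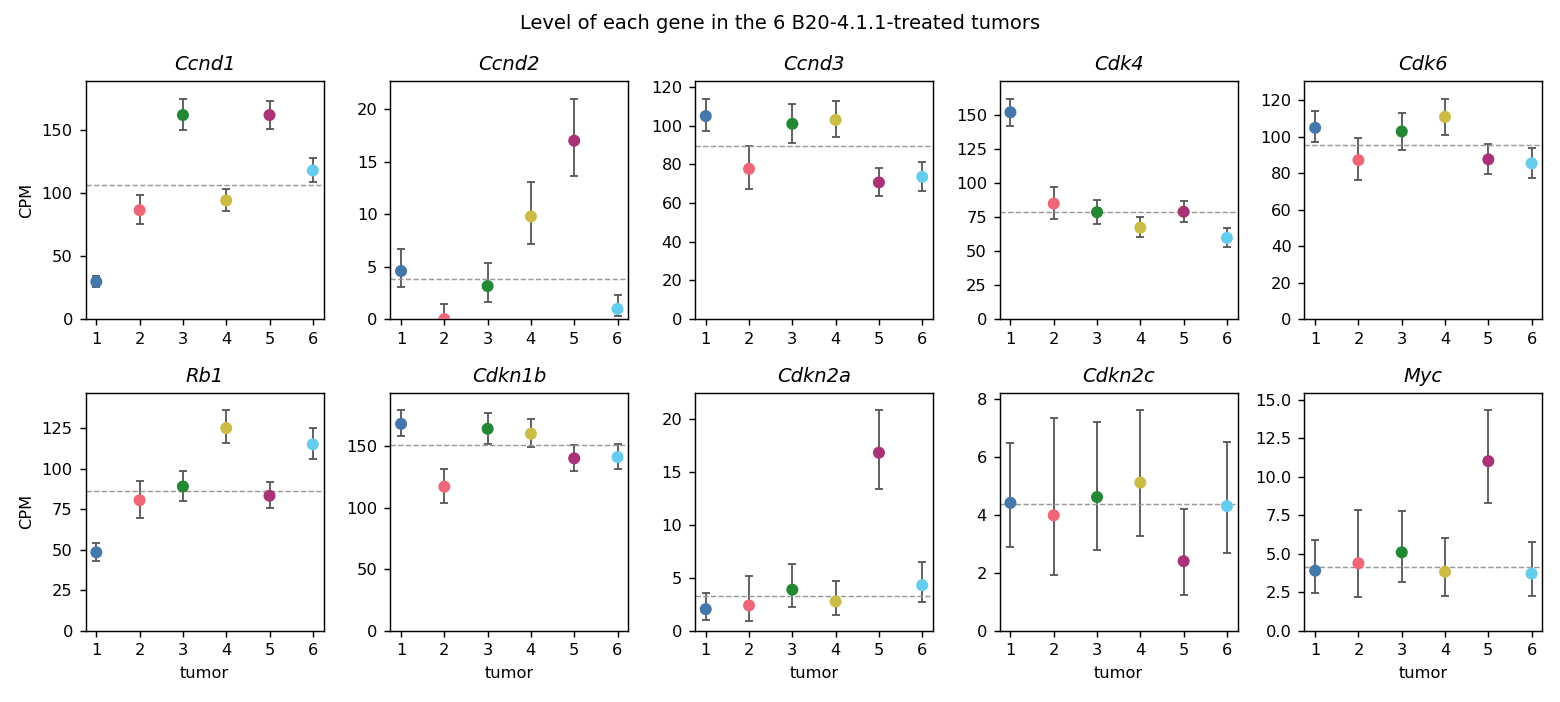
Level of each gene in each tumor in CPM (linear axes starting at 0), with 95% exact Poisson intervals that cover counting error at most and a dashed line at the median. Tumor 5 lies above every other tumor in the panels of Ccnd2, Cdkn2a and Myc, and tumor 1 lies lowest for Ccnd1 and Rb1 and highest for Cdk4.

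Ccnd1, which encodes cyclin D1 (chr7:144929931-144939925, minus strand), stood at 29.7, 86.5, 162, 94.2, 162 and 118 CPM in tumors 1 to 6. Tumor 1 was lowest and tumors 3 and 5 were highest, and the ratio of the highest to the lowest tumor was 5.47 with tumor 1 and 1.88 without it. The median of that ratio over all tested genes was 2.51. Ccnd1 ends tail to tail with LTO1, with which it shares 1771 bases on opposite strands, and the sources used here do not state whether reads were counted by strand.

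Ccnd2, which encodes cyclin D2 (chr6:127125162-127152193, minus strand), was the least abundant D cyclin, at 4.58, 0, 3.15, 9.78, 17.0 and 0.976 CPM, or 27, 0, 13, 46, 85 and 5 counts. Tumors 5 and 4 were highest and no count was seen in tumor 2, so that tumor 5 was at least 14.2-fold higher than the 3-count limit of tumor 2. The exact Poisson interval of tumor 5, 13.6 to 21.0 CPM, lay above that of tumor 4, 7.16 to 13.1 CPM.

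Ccnd3, which encodes cyclin D3 (chr17:47505051-47599691, plus strand), ranged only from 70.7 to 105 CPM, a ratio of 1.49. Its values were 105, 77.7, 101, 103, 70.7 and 73.6 CPM, with tumors 1, 3 and 4 above tumors 2, 5 and 6. Ccnd3 was thus among its highest values in the tumor where Ccnd1 was lowest. On the opposite strand Ccnd3 shares 361 bases with Bysl (48 to 263 counts), against 195 to 620 counts for Ccnd3.

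The makeup of the D cyclins followed from these levels. Ccnd1 gave 21.3, 52.7, 61.0, 45.5, 64.9 and 61.3% of the D cyclin counts in tumors 1 to 6, and Ccnd3 gave 75.4, 47.3, 37.8, 49.8, 28.3 and 38.2%. Tumor 1 was the tumor with the most Ccnd3, its Wilson 95% interval for Ccnd1 of 18.6 to 24.2% lying below the interval of every other tumor, the nearest being 42.4 to 48.6% in tumor 4. The share of Ccnd2 reached 6.80% in tumor 5 (5.53 to 8.33%) and was 0% in tumor 2, where a count of 0 allows up to 0.728%. With counts divided by exon length, Ccnd1 made up 33.6% in tumor 1 and 61.0 to 77.7% in the others. The 3 genes together summed to 139, 164, 266, 207, 250 and 193 CPM, so the total was also lowest in tumor 1.

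**Figure D2:**
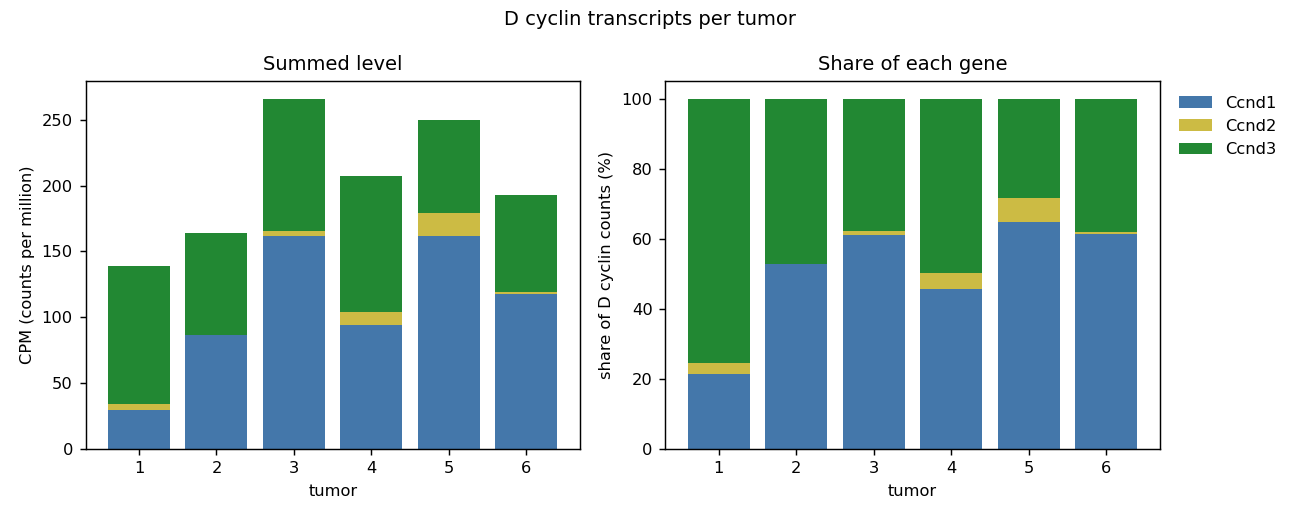
D cyclin transcripts per tumor, as stacked levels in CPM (left) and as percent of all D cyclin counts (right), with 1 bar per tumor. Ccnd3 makes up 75.4% of the counts in tumor 1 and 28.3 to 49.8% in the other tumors, and Ccnd2 is visible mainly in tumors 4 and 5.

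The catalytic partners differed in their spread. Cdk4 (chr10:127063534-127067920, plus strand) was at 152, 84.9, 78.6, 67.2, 78.9 and 59.7 CPM, with tumor 1 far above the rest. Without tumor 1 the ratio of highest to lowest fell from 2.54 to 1.42. Myc was at 3.90 CPM in tumor 1, and in tumor 5, where Myc was highest at 11.0 CPM, Cdk4 was at 78.9 CPM. A relation of Cdk4 to Myc was not tested. Cdk4 shares 641 bases with Tspan31 on the opposite strand.

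Cdk6 (chr5:3341485-3531008, plus strand) had the smallest range of the 10, at 105, 87.3, 103, 111, 87.7 and 85.5 CPM, a ratio of 1.29. Cdk4 counts exceeded Cdk6 counts only in tumor 1, where their ratio was 1.44, against 0.608 to 0.973 in tumors 2 to 6.

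Rb1 (chr14:73183673-73325822, minus strand), the substrate of both kinases, stood at 48.4, 80.5, 89.0, 125, 83.3 and 115 CPM. It was lowest in tumor 1 and highest in tumors 4 and 6, with a ratio of 2.60 over the 6 tumors and 1.56 without tumor 1. On the opposite strand Rb1 shares 24171 bases with Rcbtb2 (32 to 106 counts) and 5400 bases with Lpar6 (91 to 339 counts), against 202 to 590 counts for Rb1. On the same strand its 3′ end shares 3649 bases with Gm17233 (0 to 2 counts). How reads falling on both genes were counted is not stated in the sources used here. Of its relatives, Rbl2 (p130) was also lowest in tumor 1, at 7.47 CPM against 23.5 to 28.9 CPM elsewhere, and Rbl1 (p107) stayed between 4.58 and 8.99 CPM.

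Among the inhibitors, Cdkn1b (chr6:134920401-134925513, plus strand), which encodes p27, had the highest median of the 10 genes, at 168, 117, 164, 160, 140 and 141 CPM. The ratio of the highest to the lowest tumor was 1.44. Its counts were 5.67 times those of Ccnd1 in tumor 1 and 0.866 to 1.70 times in the other tumors.

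Cdkn2c (chr4:109660876-109667189, minus strand), which encodes p18Ink4c, was low, at 4.41, 3.98, 4.61, 5.11, 2.40 and 4.30 CPM. These are 10 to 26 counts, and the tumor 5 interval of 1.24 to 4.19 CPM overlapped that of each other tumor.

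Cdkn2a (chr4:89274471-89294653, minus strand) encodes p16Ink4a and p19Arf from transcripts that differ in their first exon. Both transcripts share the middle exon, chr4:89276645-89276985, and end in the same last exon, so these 3′ counts give their sum. The gene was at 2.04, 2.39, 3.88, 2.77, 16.8 and 4.30 CPM, or 12, 6, 16, 13, 84 and 22 counts. Tumor 5 lay far above the others, with an interval of 13.4 to 20.8 CPM against a highest upper bound of 6.50 CPM elsewhere, a ratio of highest to lowest of 8.24. The neighboring inhibitor gene Cdkn2b was also highest in tumor 5, at 4.39 CPM against 0.679 to 2.93 CPM, from 2 to 22 counts.

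Myc (chr15:61985391-61990374, plus strand) was scarce, at 3.90, 4.38, 5.09, 3.83, 11.0 and 3.71 CPM, or 23, 11, 21, 18, 55 and 19 counts. Tumor 5 was again highest, with an interval of 8.27 to 14.3 CPM that lay above the upper bound of every other tumor, the nearest being 7.84 CPM in tumor 2. Tumor 5 also had the highest hypoxia and mitosis scores described next. Its summed myoepithelial markers were the highest, 375 CPM against 106 to 250 CPM, but Krt14 alone gave 359 CPM of that sum. Krt5 and Trp63 were highest in tumor 4, at 17.4 and 16 CPM, against 10.2 and 4.59 CPM in tumor 5. Acta2 and Myh11 had at most 5 counts. The part of these markers in the levels of Cdkn2a, Myc and Ccnd2 was not tested.

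Whether 1 tumor lay apart from the other 5 was read from Dixon's ratio, the gap to its closest neighbor over the whole range. Of the 10 genes, 3 passed the 95% critical value, Cdk4 in tumor 1 and Cdkn2a and Myc in tumor 5, against 16.3% of all 12088 tested genes.

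The spread between tumors was then set against counting error with a chi-square test of Poisson counts, adjusted by Benjamini-Hochberg over all tested genes. By this test 90.5% of the 12088 tested genes varied, so the 9 of 10 genes that did so are close to the background. Ccnd1 varied with an adjusted p of 3.89e-129, Cdk4 with 4.87e-71 and Rb1 with 4.60e-45, whereas Cdkn2c did not pass (adjusted p = 0.411). Without tumor 5, Cdkn2a (adjusted p = 0.218) and Myc (adjusted p = 0.855) no longer varied beyond counting error. With a technical coefficient of variation of 10% allowed, Cdk6 (adjusted p = 0.423) and Cdkn1b (adjusted p = 0.246) did not pass.

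Relative to genes of like abundance, the 10 genes spanned both ends of the range. The dispersion that edgeR estimated for Ccnd2 was 3.67 times its trend, higher than for 99.3% of tested genes, that of Cdkn2a 1.91 times (93.4%) and that of Ccnd1 1.68 times (90.8%). Cdkn2c (0.529 times), Cdk6 (0.536), Cdkn1b (0.557) and Ccnd3 (0.600) had ratios below which lay at most 14.6% of the tested genes. Without tumor 1 these ranks moved up, and the share of genes with a lower ratio was 22.0% for Cdkn2c, 12.5% for Cdk6, 18.6% for Cdkn1b and 31.0% for Ccnd3. Without that tumor, Ccnd1 came down to 1.02 times the trend and Ccnd2 went to 5.78 times.

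**Figure D3:**
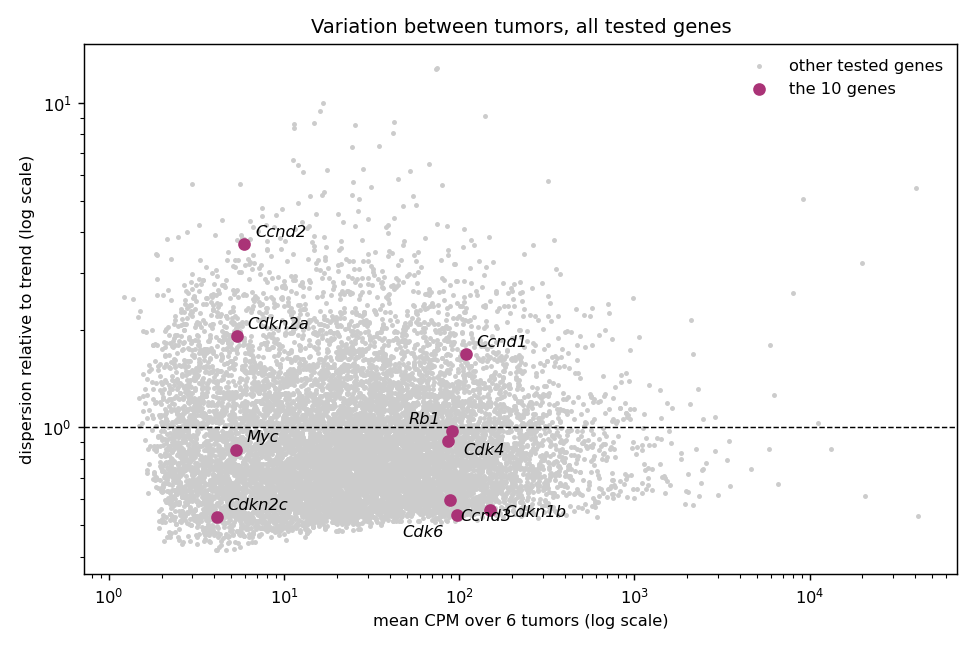
edgeR dispersion of each tested gene relative to the trend at its abundance, against mean CPM (both axes log scale), with the 10 genes marked and the dashed line at a ratio of 1. Ccnd2 lies at 3.67, Cdkn2a at 1.91 and Ccnd1 at 1.68, and Cdkn2c, Cdk6, Cdkn1b and Ccnd3 lie between 0.529 and 0.600.

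The genes were next related to hypoxia, the subject of the study, and to mitosis. The hypoxia score, the mean TPM of the HIF target genes Vegfa, Slc2a1 and Car9, was 48.5, 37.2, 51.4, 76.6, 94.4 and 47.3 in tumors 1 to 6. The mitosis score, the mean log2(TMM-scaled CPM + 1) of 10 mitotic genes such as Mki67 and Top2a, was 4.00, 4.14, 4.61, 4.68, 5.31 and 4.29. Tumor 5 was highest and tumor 4 next on both scores, and the scores were related over the 6 tumors (r = 0.884, exact permutation p = 0.0167; rho = 0.829, exact permutation p = 0.0583). Without tumors 4 and 5, the farthest from the median hypoxia score, r was 0.459, so the relation rests on those tumors. A slope on one score cannot be told apart from a slope on the other in these tumors.

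With edgeR's quasi-likelihood test, 0% of 12085 genes were called on the hypoxia score and 0% of 12078 on the mitosis score at an adjusted p under 0.05, and none of the 10 genes was. At an unadjusted p under 0.05, 2 of the 10 passed on hypoxia (Ccnd2 and Cdkn2a) and 3 on mitosis (those and Myc). At the same level, 510 of all genes passed on hypoxia and 1238 on mitosis, and DESeq2 gave 544 and 1287 genes at that level. At an adjusted p under 0.05, DESeq2 called 15 and 64 genes. The slopes of the 10 genes were above 0 in 7 on hypoxia and 5 on mitosis, with medians of 0.111 and 0.0972 on the log2 scale, against -0.0393 and -0.0313 over all tested genes, of which 46.8% and 48.3% were above 0.

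Ccnd2 had the steepest slope of the 10 on the hypoxia score, 3.21 ± 0.745 (SE, n = 6) log2 units per doubling of the score, with an unadjusted p of 0.00171 and an adjusted p of 0.752 in edgeR. DESeq2 called it, alone of the 10, with a slope of 3.30 and an adjusted p of 0.0167, the lowest of a range over alternatives that reached 1.0. Pearson's r was 0.945 (exact permutation p = 0.00833, adjusted over all genes 0.969) and rho was 0.943 (exact permutation p = 0.0167), in a family of all 10 genes and both scores. Leaving out tumors 4 and 5, the farthest from the median score, left r at 0.882. Of the tumors then left, tumors 1, 3 and 6 had close scores of 48.5, 51.4 and 47.3. Tumor 2 had 37.2 and no Ccnd2 count, so it weighs heavily in this r. Within the 4 tumors whose identifiers begin with QAF, r was 0.917. The 2 tumors of the other identifier prefix, QSD, were too few for a value. As each tumor was left out in turn, the slope of Ccnd2 on hypoxia lay between 2.76 and 3.83, none of these fits passing the threshold. On the mitosis score its slope was 2.20 ± 0.856 (SE, n = 6; edgeR adjusted p = 0.461).

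Cdkn2a had slopes of 1.79 ± 0.607 on hypoxia (SE, n = 6; edgeR adjusted p = 0.954) and 2.07 ± 0.509 on mitosis (SE, n = 6; edgeR adjusted p = 0.368). Myc had 0.86 ± 0.486 and 1.06 ± 0.446, neither past the threshold. Both rested on tumor 5: without it the slopes on hypoxia were -0.061 for Cdkn2a and -0.21 for Myc, and those on mitosis were 0.72 and 0.16. Ccnd1 sloped by 1.11 ± 0.556 on mitosis (SE, n = 6; edgeR adjusted p = 0.518) and by 0.48 ± 0.565 on hypoxia. The other 6 genes had slopes between -0.38 and 0.17 on hypoxia and between -0.55 and 0.25 on mitosis.

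**Figure D4:**
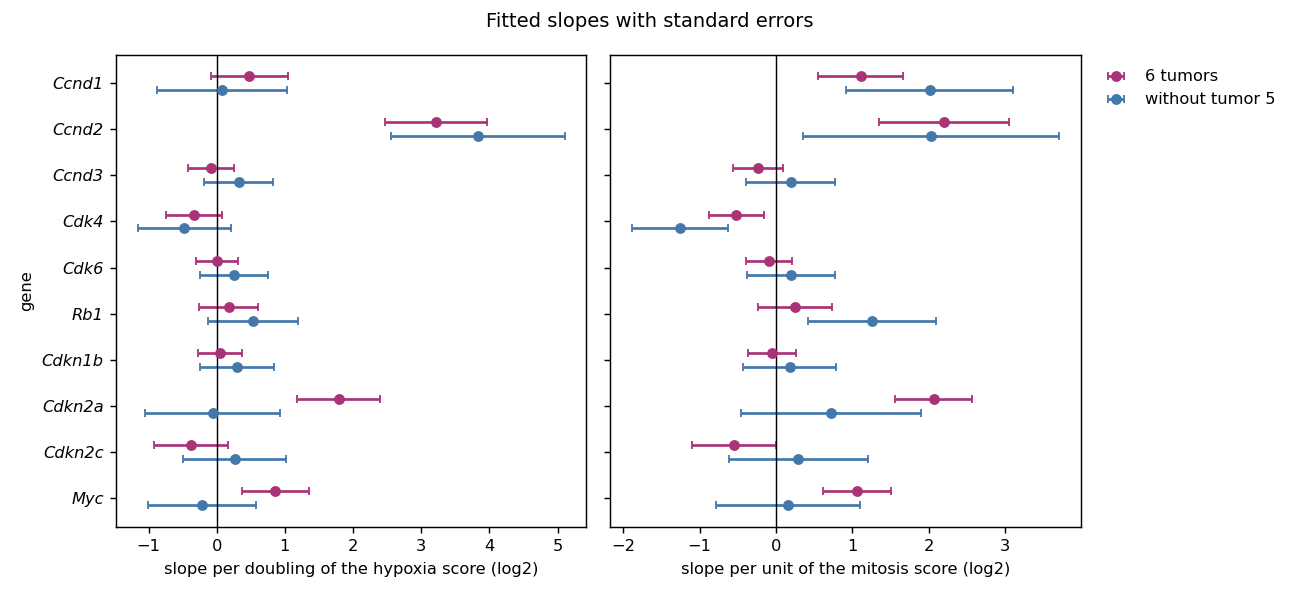
Slopes on the log2 scale with standard errors for the 10 genes, per doubling of the hypoxia score (left) and per unit of the mitosis score (right), for 6 tumors and without tumor 5. On hypoxia, Ccnd2 is at 3.21 with 6 tumors and 3.83 without tumor 5, whereas Cdkn2a goes from 1.79 to -0.061 and Myc from 0.86 to -0.21.

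The rest of the pathway was read from lists of named genes, and 0 genes of any list were called by edgeR on either score. Over all tested genes 90.5% varied beyond counting error and 46.8% and 48.3% of slopes lay above 0 on hypoxia and mitosis, and the counts for each list were read against these shares as a description. All 4 other CDK inhibitors varied, against that 90.5%. Cdkn1a, which encodes p21, had the highest level in CPM and the largest ratio of highest to lowest tumor, 5.48, at 100, 41.0, 55.3, 225, 87.9 and 57.4 CPM. Its highest tumor was tumor 4, not tumor 5 as for Cdkn2a. Cdkn2d, which encodes p19Ink4d, ranged from 7.42 to 15.4 CPM.

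E2F and DP factors passed the filter in 8 of 10 cases, 7 of which varied beyond counting error. Rb and its relatives restrain the classical members of this family, whereas E2F6, E2F7 and E2F8 lack the pocket protein binding domain. All 8 had slopes above 0 on both scores, against 46.8% and 48.3% of all tested genes, with medians of 0.396 on hypoxia and 0.563 on mitosis. None of them passed the test, and the smallest were 0.01 for E2f5 on hypoxia and 0.02 for E2f1 on mitosis. Because the scores are related, these are not separate counts. Tfdp2, the highest of them in CPM, was at 42.4 to 90.5 CPM and lowest in tumor 1. Among those with a mean of at least 5 CPM, E2f6 had the largest ratio of highest to lowest tumor, 4.78, at 2.71, 3.98, 11.6, 9.36, 13.0 and 7.81 CPM. E2f5 had the smallest, 1.62, at 18.0 to 29.1 CPM.

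Downstream, all 5 late G1 genes (those of cyclins E and A, Cdk2 and the phosphatase gene Cdc25a) varied, against 90.5% of all tested genes, with 2 of 5 slopes above 0 on hypoxia and 4 of 5 on mitosis, against 46.8% and 48.3%. Ccne2 was highest in tumor 5, at 9.98 CPM against 3.05 to 7.03 CPM. Cdc25a, the highest of them in CPM, ranged from 22.3 to 41.7 CPM. Of 12 replication genes, 10 had slopes above 0 on hypoxia and 8 on mitosis. The helicase subunit gene Mcm4 went from 4.58 CPM in tumor 1 to 24.6 CPM in tumor 5, whereas Mcm7 stayed between 64.4 and 96.4 CPM.

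Among partners and antagonists of MYC, 7 of 10 genes passed the filter and all 7 varied, against 90.5% of all tested genes. Mycn and Mycl had at most 3 counts in any tumor, so Myc was the only one of the 3 family members with appreciable counts. The dimerization partner Max was at 72.5 to 143 CPM, and the antagonist Mxd4, the highest of them in CPM, at 287 CPM in tumor 5 and 505 CPM in tumor 1. Mga was lowest in tumor 1, at 63.6 CPM, and 156 to 241 CPM elsewhere.

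The 12 genes that MYC is known to activate summed to 1791, 1688, 1768, 2400, 2960 and 2228 CPM, highest in the tumor with the most Myc. That sum was led by Npm1, a nucleolar protein gene with many pseudogenes that could share its reads, from 442 CPM in tumor 2 to 1356 CPM in tumor 5. Of these genes 11 varied beyond counting error, and they did not move as one. Slopes were above 0 in 8 of 12 on each score. Npm1 and Rrs1 were highest in tumor 5, Odc1, Cad, Nme1, Srm and Polr1b in tumor 1, and the rest in other tumors. Nop56 was lowest in tumor 1 at 2.38 CPM and highest in tumor 4 at 27.4 CPM. Polr1b was lowest in tumor 5 at 10.6 CPM, its other values being 11.9 to 16.0 CPM.

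Of 8 genes that control the turnover of D cyclins, p27 and MYC, 7 varied and 4 had slopes above 0 on each score. Gsk3b, whose kinase marks cyclin D1 and MYC for degradation, was the highest in CPM, at 293 to 526 CPM. The ubiquitin ligase gene Fbxw7 was at 31.1 CPM in tumor 1 and 94.3 to 125 CPM elsewhere, and Ambra1, whose product directs the degradation of D cyclins, ranged from 32.5 to 53.4 CPM. Skp2, the ligase for p27, was at 0.509 CPM in tumor 1 (3 counts) and 2.73 to 9.78 CPM in the other tumors.

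**Figure D5:**
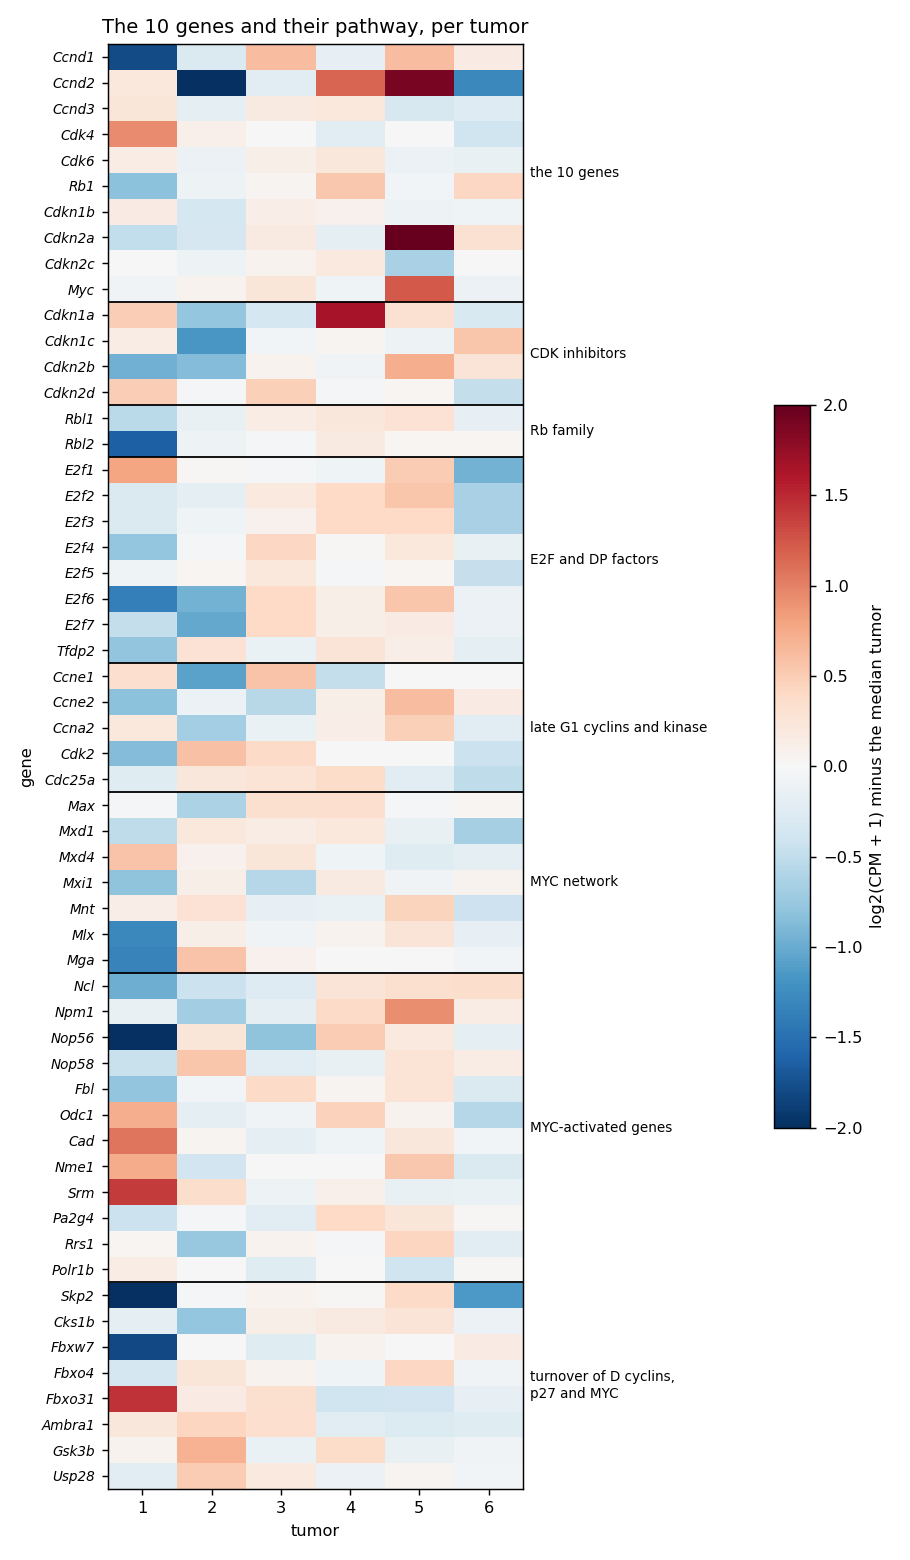
The 10 genes and 7 lists of their pathway, as log2(CPM + 1) minus the median of the 6 tumors for each tested gene (color scale capped at the ends of the bar). Cdkn2a and Ccnd2 are at the high end in tumor 5, and Ccnd1, Rb1, Rbl2, Nop56 and Fbxw7 are lowest in tumor 1.

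The genes whose pattern over the 6 tumors was most like that of the 5 genes with the largest dispersion relative to the trend over all 6 tumors were ranked by Pearson's r of log2(TMM-scaled CPM + 1), over the 8873 genes whose mean level reached 10 CPM, as a description. For Ccnd2 these were Tns4 (r = 0.994) and Pkia (0.987), for Cdkn2a Arhgap6 (0.991) and Uqcc2 (0.987), and for Ccnd1 Fam214b (0.996) and Heatr3 (0.995). Rb1 was most like Zhx1 (0.994) and Jade1 (0.986), and Cdk4 was most like Trim28 (0.999) and Hps1 (0.996). With 6 points such values are common: 46 genes exceeded an r of 0.9 with Ccnd2, 69 with Cdkn2a and 388 with Cdk4, whose pattern is the contrast of tumor 1 with the rest.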

How the data were processed

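RNA of sorted CD45-EPCAM+ cells was measured in 6 tumors of 1 group with a 3′ library kit (QuantSeq). Per the labels' processing notes, STAR 2.5, HTSeq and the mouse build GRCm38 (mm10) were used by the authors, and each deposited file holds whole-number counts for each gene identifier, with no scaling. The kit carried molecular identifiers. Whether they were used to collapse reads, whether counting used the strand, and the annotation release are not given in the sources used here. Intervals cover counting error at most. They and the chi-square test treat each count as a separate molecule. If reads were not collapsed, the intervals would be too narrow and the test would call too readily. Lines that name no gene (5 per library, 16.1 to 41.4% of reads) were left out. CPM used all genes, and TPM used union exon lengths of GENCODE M21, which holds 47224 of the 47643 identifiers.

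Genes with at least 10 counts, scaled to the median library, in 3 tumors and 15 in all were tested (12088). The number of 3 tumors was set after a first fit that required all 6, which left out Ccnd2 and Cdkn2a; that stricter filter is kept as an alternative. Variation was tested with a chi-square test of Poisson counts, and slopes on each score with edgeR 4.0.16 (quasi-likelihood, TMM) in R 4.3.3, with Benjamini-Hochberg adjustment over all genes and DESeq2 1.42.0 as an alternative. Exact permutation p-values cover all 720 orders of the tumors, the smallest being 0.00139, and tests are two-sided. The genes of a score were left out of its test. Scripts were tested on simulated data. The members and lists were chosen with earlier results of these data known. Named from each list were its most abundant gene and those with the largest and smallest ratio of highest to lowest tumor at a mean of at least 5 CPM; other list genes were named after their values were seen.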

Additional observations from a re-analysis of the deposited data

Results flagged for a closer look

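A single tumor was set apart where Dixon's ratio, the distance to the next value over the whole range, passed its 95% critical value. Of 27 quantities examined (the 10 genes, the summed D cyclins and 16 lists), 6 passed, where independent normal values would give about 1.35. These quantities come from the same 6 tumors and are not independent, so 1.35 is too low a background. The share to set beside them is that of all tested genes, of which 16.3% passed, against 3 of the 10 genes. Cdkn2a (0.847) and Myc (0.81) were set apart by their high level in tumor 5, and Cdk4 (0.726) by its high level in tumor 1. The sum of Rbl1 and Rbl2 was set apart by a low tumor 1 (0.703), where Rbl2 was at 7.47 CPM. The leukocyte markers (0.833), led by Lyz2 at 148 CPM, and the erythroid markers (0.926), led by Hba-a1 at 389 CPM, were set apart by tumor 3, in which none of the 10 genes had a gap of this kind. The causes were not tested.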

How the results depend on the processing

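On the hypoxia score, 10 genes were called with no filter on low counts, 15 with DESeq2 and 3 with a score from mean log2 TMM-scaled CPM, and 0 to 2 when 1 tumor was left out, the 2 calls coming without tumor 1. On the mitosis score the counts were 3 at an adjusted p under 0.1, 28 with no filter, 64 with DESeq2, 2 with a filter requiring all 6 tumors (an alternative chosen after seeing the data), and 0 to 14 with 1 tumor left out, the 14 coming without tumor 1. The count of varying genes moved by less than 1.5 times under all 12 alternatives. Of 286 alternative slopes of the 10 genes, 263 kept their direction and call, 1 became a call (Ccnd2 with DESeq2) and 22 changed sign. Cdk6 on hypoxia went to -0.046 with the identifier prefix as a term, -0.013 as Pearson's r, -0.0027 with a score from CPM and -0.041 with the mean log2 score, and Cdkn1b went to -0.049 with the prefix and -0.023 with the mean log2 score. With a score from replication genes, Rb1 went to -0.24 and Cdkn1b to 0.21. With 1 tumor left out, slopes on hypoxia ranged from -0.24 to 0.32 for Ccnd3, -0.1 to 0.26 for Cdk6, -0.069 to 0.54 for Rb1, -0.12 to 0.29 for Cdkn1b, -0.061 to 2.15 for Cdkn2a, -0.73 to 0.26 for Cdkn2c and -0.21 to 1.17 for Myc. On mitosis they ranged from -0.29 to 0.19 for Ccnd3, -0.13 to 0.2 for Cdk6, -0.24 to 1.25 for Rb1, -0.14 to 0.18 for Cdkn1b and -0.74 to 0.29 for Cdkn2c. These causes were not tested. Of 118 alternative tests of variation, 4 lost the call, those of Cdkn2a and Myc without tumor 5 and of Cdk6 and Cdkn1b with technical variation allowed. CPM without the 10 most abundant genes raised the medians of Ccnd3 to 109, Cdk6 to 115 and Cdkn1b to 185. The gap of Cdkn2c passed Dixon's critical value under TMM scaling (0.67), chosen after seeing the data. No paired analysis was possible because all tumors belong to 1 group. Depth limits Ccnd2, Cdkn2a, Cdkn2c and Myc, which had at most 85 counts in a tumor.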
